A study of Homo sapiens with 6 samples.

Results

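Homologous recombination and Fanconi anaemia genes encode the proteins that repair broken and crosslinked DNA while it is being copied, and 33 of them were followed by gene symbol, of 37923 genes in the count table. All 33 passed the filter on low counts and were among the 18581 genes tested. The libraries came from cells labelled RKO, a human colorectal carcinoma cell line: 3 libraries of a group named ENZ, given, according to the series design, the compound A3, which degrades the histone demethylase LSD1, with RNA taken at 48 h, and 3 libraries of a group named Control. The labels do not say what the Control cells received, what ENZ stands for or how replicates of a group were kept apart. The p-values therefore measure the spread between these 6 libraries, which may be technical.

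In homologous recombination the MRE11-RAD50-NBN complex binds a double-strand break, the ends are resected to single strands, and BRCA1, PALB2 and BRCA2 prepare them to pair with the sister chromatid, which serves as a template. The Fanconi anaemia core complex attaches ubiquitin to FANCD2 and FANCI at a crosslink between the strands and so directs its excision, after which recombination restores the chromosome. ATM and ATR signal the damage to the cell cycle through CHEK2 and CHEK1. Inherited loss of BRCA1 or BRCA2 predisposes to breast, ovarian, pancreatic and prostate cancer, and tumours that lack them are sensitive to PARP inhibitors. Many of these genes are transcribed mainly in S and G2 phase of the cell cycle.

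Library totals were 26756840 to 30025543 counts in ENZ and 26691289 to 28207612 counts in Control, and the members had 159 to 7772 counts in a library. KDM1A, which encodes LSD1, had 109.5 ± 3.98 CPM in ENZ and 111 ± 1.87 CPM in Control (SD, n = 3; log2 fold change −0.02, 95% interval −0.11 to 0.06, adjusted p = 0.681). With GC and length offsets, described with base composition below, it was −0.09 with a call (adjusted p = 0.0185). The compound is described as acting on LSD1 protein, which was not measured here, so this transcript cannot check the exposure. Among 8 intestinal epithelial markers measured, 6 were under 1 CPM, with CDX1, KRT20 and GPA33 at or under 0.0747 CPM in every library, and the list summed to 85.0 to 88.6 CPM in ENZ and 63.4 to 65.9 CPM in Control. The sum of 10 prostate luminal markers was 3166 to 3202 CPM in ENZ and 2820.2 to 2882 CPM in Control. The intestinal genes under 1 CPM and the prostate sum go against the colon label. The other intestinal genes, which make up most of that list's sum, do not, and 2 of 3 intestinal genes tested were called higher in ENZ. Which cells these are was not tested, and RKO and ENZ are used here as the names on the libraries. Markers of leukocytes summed to 1.56 to 2.16 CPM in ENZ and 1.03 to 1.80 CPM in Control. Those of endothelium summed to 2.73 to 3.29 CPM in ENZ and 3.56 to 4.04 CPM in Control, with PTPRC, PECAM1 and FAP at or under 0.150 CPM in every library. The fibroblast list summed to 40.2 to 43.1 CPM in ENZ and 77.7 to 86.7 CPM in Control, 6 of its 9 genes being under 1 CPM, and most of that sum was LUM (29.5 ± 1.45 CPM in ENZ and 66.7 ± 3.63 CPM in Control).

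The question was whether these repair genes differed between the libraries labelled ENZ and Control. Of the 33 members, 23 fell and 2 rose in ENZ at an adjusted p under 0.05 by the quasi-likelihood test of edgeR, Benjamini-Hochberg adjusted over all genes tested. Every adjusted p below comes from that test unless another is named. Among all genes tested 19.3% fell, 20.5% rose and 39.8% were called in either direction. The median log2 fold change (ENZ over Control) was −0.24 over the members and −0.01 over all genes tested. The falls were moderate: they ran from −0.72 in FANCB, a subunit of the Fanconi anaemia core complex, to −0.13 in FANCI, and no member passed the limit of an absolute log2 fold change over 1 that the series design states, which 2.98% of all genes tested passed together with the adjusted p. In 25 members every ENZ library lay below every Control library and in 2 every ENZ library lay above, against 24% and 25.3% of all genes tested. Counted per library against the mean of the Control libraries, the median log2 ratio of the members was −0.20, −0.28 and −0.36 in ENZ replicates 1, 2 and 3, and between −0.05 and 0.02 in the 3 Control libraries. ENZ replicate 1 thus lay nearest to Control, and it was the highest ENZ library in 19 of the 23 members that fell. Without it 23 members fell and 2 rose, with a median of −0.31. In bulk RNA fewer cells in a phase or state and less of a transcript per cell cannot be told apart.

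**Figure D1:**
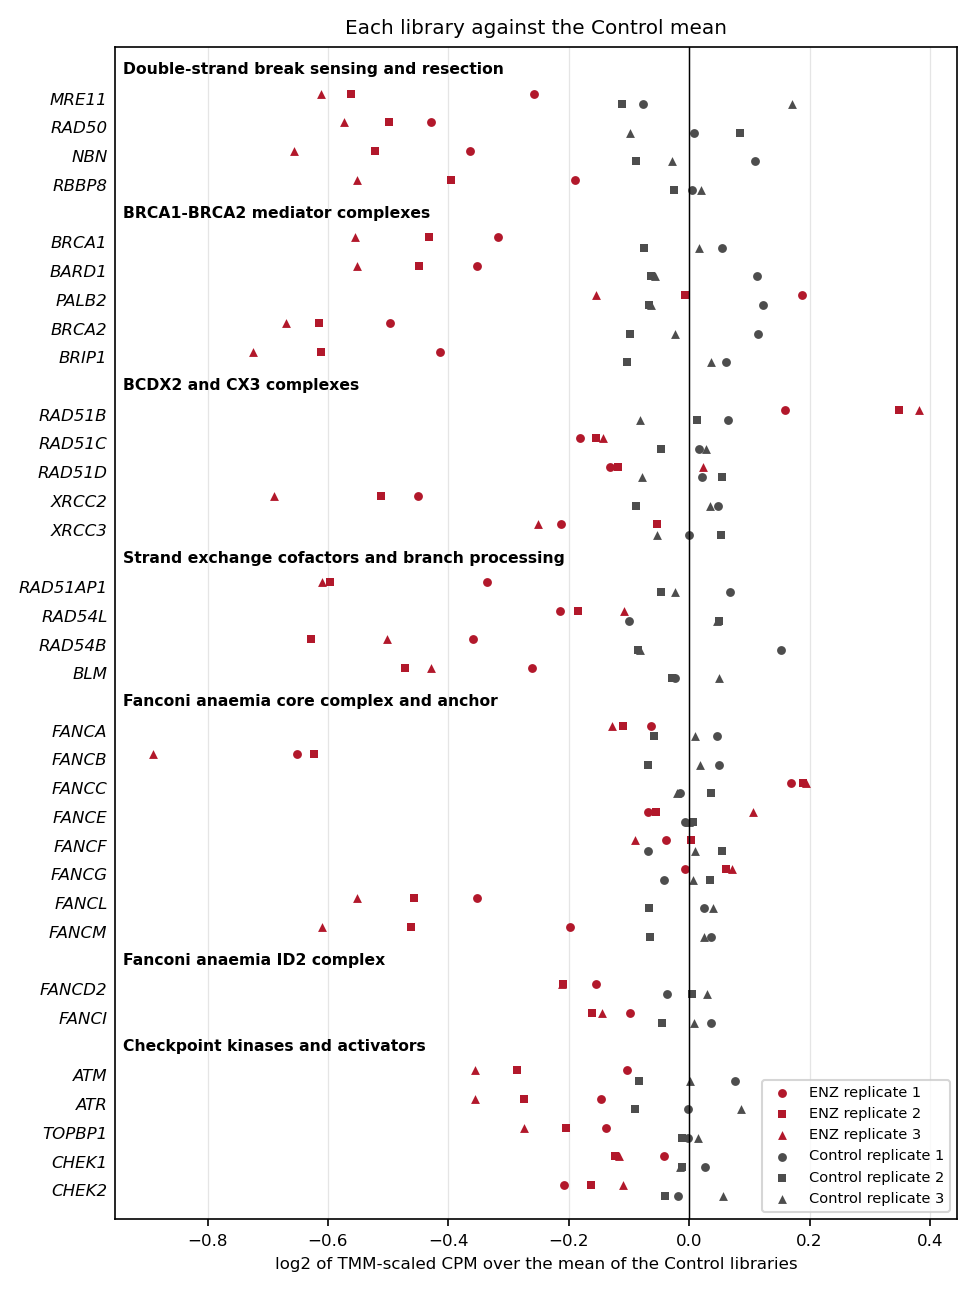
Log2 of the TMM-scaled CPM of each library over the mean of the Control libraries, for the 33 members by role; red symbols are ENZ libraries and grey symbols Control libraries, and the symbol shape gives the replicate. The ENZ libraries of most members lie left of all 3 Control libraries, RAD51B and FANCC lie right of them, and PALB2, RAD51D, XRCC3, FANCE, FANCF and FANCG overlap.

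Levels between genes were compared per length, in the deposited FPKM, which rest on the gene lengths the authors used. In Control the highest means were those of RAD51AP1 with 14.5 ± 1.69 FPKM in ENZ and 21.1 ± 0.972 FPKM in Control, RBBP8 with 14.7 ± 1.97 FPKM in ENZ and 19.4 ± 0.363 FPKM in Control and BRCA1 with 13.2 ± 1.18 FPKM in ENZ and 18.2 ± 0.905 FPKM in Control (SD, n = 3 each). The next 5 in Control, FANCI, FANCF, FANCG, the ATR activator TOPBP1 and XRCC2, a subunit of the BCDX2 complex, had means of 10.3 to 14.3 FPKM in ENZ and 14.2 to 16.6 FPKM in Control. In ENZ the order at the top differed, with FANCG, TOPBP1, FANCF and FANCI above BRCA1. The lowest were RAD50 with 0.563 ± 0.0323 FPKM in ENZ and 0.815 ± 0.0494 FPKM in Control and FANCB with 0.575 ± 0.0595 FPKM in ENZ and 0.968 ± 0.0444 FPKM in Control. High and low members both fell: across the 33 members Spearman's rho between the Control level in FPKM and the log2 fold change was 0.13, as a description.

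**Figure D2:**
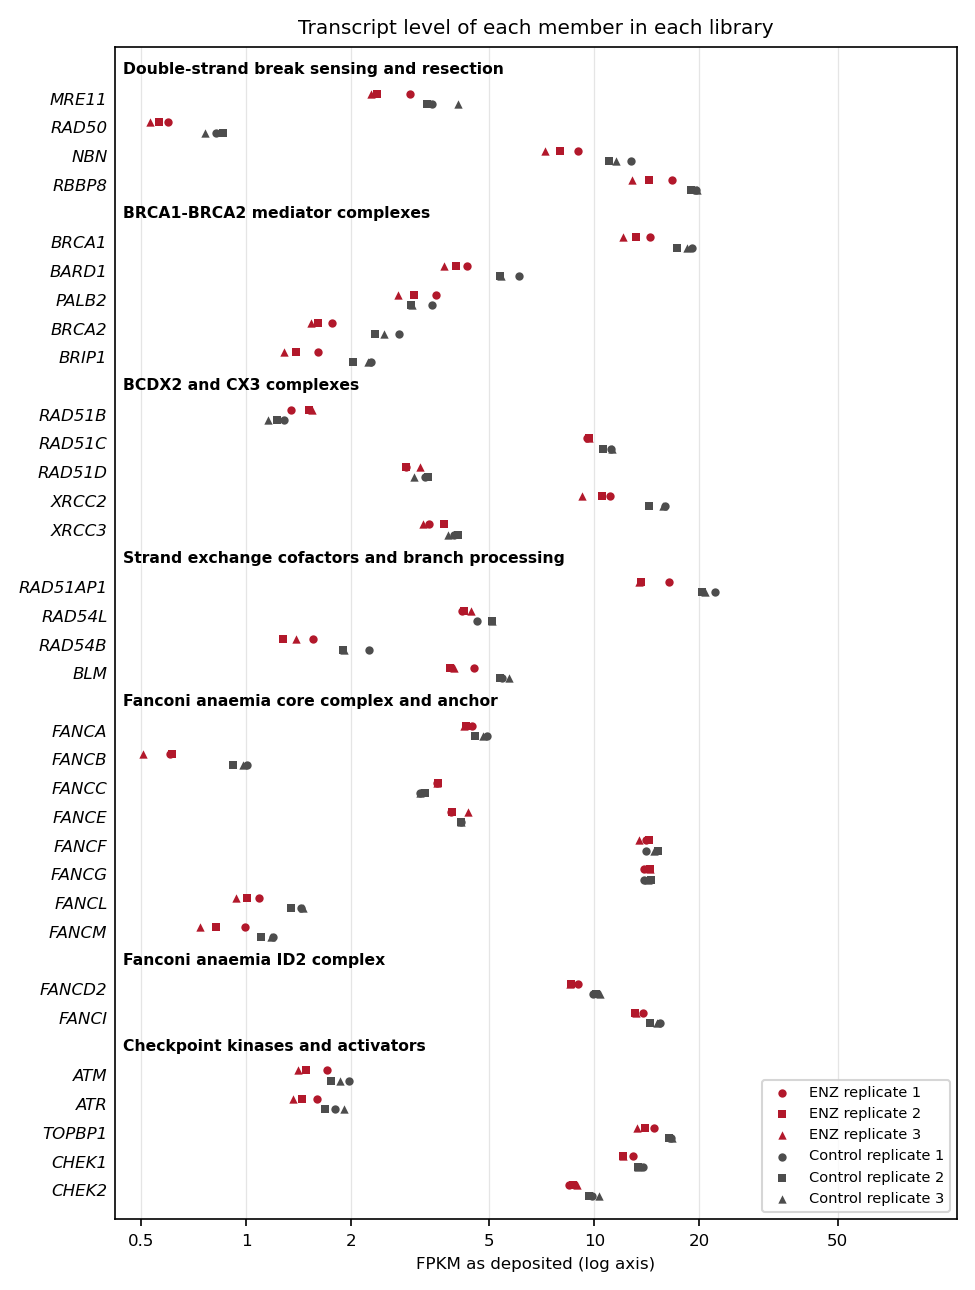
Deposited FPKM of each member in each library on a log axis, by role; red symbols are ENZ libraries and grey symbols Control libraries. Members range from RAD50 and FANCB, under 1 FPKM in most libraries, to 8 members above 12 FPKM in every library, RAD51AP1, RBBP8, BRCA1, TOPBP1, CHEK1, FANCF, FANCG and FANCI.

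The stretch of DNA before 1 listed start is shown for each of 7 members, to set members with falls beside the 2 that rose. The table of promoters (RefSeq, GRCh38.p14) held 40 starts of 30 members, and NBN, RAD54B and FANCI were not matched. For each start the 250 bases upstream were searched on both strands for the E2F site (TTCCCGC or TTGGCGC or TTCGCGC or TTGCCGC), a motif of genes induced at S phase, for the CHR element (TTTGAA), a motif of genes expressed in G2 and mitosis, and for CCAAT, which NF-Y binds. In the windows printed here no match overlaps another. E2F sites stood in 30% of the member promoters, against 10.9% of all 35116 promoters and 15.6% of those of tested genes. CCAAT stood in 45%, against 32% and 32.9%, and the CHR element in 7.5%, against 13.3% and 9.24%. An E2F site was present for 5 of the 20 matched members that fell and for 5 of the 10 others. In the sequences, written 5′ to 3′ on the gene's strand and ending at the base before the listed start, capitals mark these motifs.
RAD51AP1, chr12:4538640-4538889, plus strand: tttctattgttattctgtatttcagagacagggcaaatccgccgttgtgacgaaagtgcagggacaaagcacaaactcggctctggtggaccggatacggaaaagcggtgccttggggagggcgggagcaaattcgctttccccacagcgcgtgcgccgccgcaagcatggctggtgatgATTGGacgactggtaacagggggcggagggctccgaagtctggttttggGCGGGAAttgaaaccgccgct
BLM, chr15:90717096-90717345, plus strand: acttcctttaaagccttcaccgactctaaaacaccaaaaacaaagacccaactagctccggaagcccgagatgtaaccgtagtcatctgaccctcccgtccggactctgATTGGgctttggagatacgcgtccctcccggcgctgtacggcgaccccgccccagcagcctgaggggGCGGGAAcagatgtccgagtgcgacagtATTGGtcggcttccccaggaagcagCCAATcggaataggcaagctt
BRCA1, chr17:43125365-43125614, minus strand: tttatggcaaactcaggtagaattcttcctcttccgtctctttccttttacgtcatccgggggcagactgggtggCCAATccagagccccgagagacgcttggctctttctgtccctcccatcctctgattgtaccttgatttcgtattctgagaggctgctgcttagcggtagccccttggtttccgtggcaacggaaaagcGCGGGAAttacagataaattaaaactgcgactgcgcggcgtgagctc
BRCA2, chr13:32315258-32315507, plus strand: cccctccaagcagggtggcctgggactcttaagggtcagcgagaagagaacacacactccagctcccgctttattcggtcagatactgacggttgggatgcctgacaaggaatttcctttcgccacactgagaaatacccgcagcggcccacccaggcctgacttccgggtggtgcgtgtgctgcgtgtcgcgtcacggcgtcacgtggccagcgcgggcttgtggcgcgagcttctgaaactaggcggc
FANCB, chrX:14873070-14873319, minus strand: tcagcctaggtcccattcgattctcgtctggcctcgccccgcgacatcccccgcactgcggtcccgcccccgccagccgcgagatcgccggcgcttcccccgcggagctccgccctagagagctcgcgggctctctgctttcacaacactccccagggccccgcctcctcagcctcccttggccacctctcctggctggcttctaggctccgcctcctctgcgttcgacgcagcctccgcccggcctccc
FANCC, chr9:95317710-95317959, minus strand: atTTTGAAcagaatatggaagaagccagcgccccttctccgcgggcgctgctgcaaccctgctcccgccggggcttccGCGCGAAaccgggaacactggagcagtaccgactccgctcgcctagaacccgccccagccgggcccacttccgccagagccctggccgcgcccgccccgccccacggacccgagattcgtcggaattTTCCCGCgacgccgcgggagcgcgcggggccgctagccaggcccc
RAD51B, chr14:67823291-67823540, plus strand: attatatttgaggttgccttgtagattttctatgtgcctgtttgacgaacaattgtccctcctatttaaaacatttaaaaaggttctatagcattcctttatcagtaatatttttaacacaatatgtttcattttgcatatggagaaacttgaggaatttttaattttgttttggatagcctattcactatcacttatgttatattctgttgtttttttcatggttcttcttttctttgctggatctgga
In these windows RAD51AP1, BLM and BRCA1, which fell, hold both an E2F site and CCAAT. The windows of RAD54L and FANCA, not printed here, hold both as well, and neither gene was called. FANCC, which rose, holds 2 E2F sites and a CHR element. BRCA1, FANCC and RAD51B each have another listed start, not printed here. That of FANCC holds 1 E2F site and no CHR element, and those of BRCA1 and RAD51B hold none of these motifs. BRCA2 and FANCB, with the largest falls, hold none of these letters in this window, and neither does the start of RAD51B, which rose. That RAD51B window is also unlike the others in base composition, with 29.6% GC and 1 CpG, against a median of 63.0% GC over the member promoters. It lies inside the gene as annotated, which begins upstream at position 67819779, so it is not the DNA before the gene's first annotated base. The printed windows of BRCA1, BRCA2 and FANCC also lie wholly inside their annotated genes.

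The genes that sense and resect a break all fell. NBN, the subunit of the MRE11-RAD50-NBN complex that recruits ATM, had 55.6, 49.9 and 45.4 CPM in the ENZ libraries, against 77.2, 67.3 and 70.2 CPM in the Control libraries (log2 fold change −0.51 ± 0.07 SE, adjusted p = 2.68e-05). MRE11, the nuclease of the complex, had 22.8, 18.5 and 17.9 CPM in the ENZ libraries, against 25.9, 25.3 and 30.7 CPM in the Control libraries (log2 fold change −0.47 ± 0.10 SE, adjusted p = 0.00162). RAD50, the ATPase that tethers the ends, had 6.33, 6.03 and 5.72 CPM in the ENZ libraries, against 8.56, 9.03 and 7.96 CPM in the Control libraries (log2 fold change −0.50 ± 0.10 SE, adjusted p = 4.51e-04). In each of them the ENZ libraries were below all Control libraries, with fitted percent changes of −29.7 to −27.6. RBBP8, whose product CtIP starts resection, had 85.6, 74.1 and 66.5 CPM in the ENZ libraries, against 97.8, 95.9 and 98.9 CPM in the Control libraries (log2 fold change −0.37 ± 0.07 SE, adjusted p = 0.00165), with ENZ replicate 1 between the other ENZ libraries and Control. In GRCh38 MRE11 lies on chromosome 11, 94415570 to 94493885, and RBBP8 on chromosome 18, 22798261 to 23026488; all 33 members are annotated as protein-coding in GENCODE release 44.

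Among the mediators, which act on resected DNA, 4 of 5 fell. BRCA2 (chromosome 13, 32315086 to 32400268), the central mediator of recombination, had 22.6, 20.9 and 20.1 CPM in the ENZ libraries, against 34.6, 29.8 and 31.4 CPM in the Control libraries (log2 fold change −0.59 ± 0.07 SE, adjusted p = 5.89e-07). BRIP1, a helicase bound by BRCA1 and also a Fanconi anaemia gene, had 31.8, 27.8 and 25.7 CPM in the ENZ libraries, against 44.2, 39.5 and 43.5 CPM in the Control libraries (log2 fold change −0.58 ± 0.07 SE, adjusted p = 3.47e-06). BRCA1 (chromosome 17, 43044295 to 43170245), a ubiquitin ligase with BARD1, had 135, 125 and 114 CPM in the ENZ libraries, against 175, 159.5 and 169.9 CPM in the Control libraries (log2 fold change −0.43 ± 0.05 SE, adjusted p = 6.59e-06). In percent, BRCA2 fell by 33.6% and BRCA1 fell by 25.8%, and no ENZ library of these genes reached a Control library. BARD1, the partner of BRCA1, had 32.9, 30.8 and 28.7 CPM in the ENZ libraries, against 45.5, 40.2 and 40.4 CPM in the Control libraries (log2 fold change −0.45 ± 0.06 SE, adjusted p = 8.12e-06), so both partners of the ligase fell. PALB2, which bridges BRCA1 and BRCA2, had 16.7, 14.6 and 13.2 CPM in the ENZ libraries, against 15.97, 14.00 and 14.04 CPM in the Control libraries (log2 fold change 0.02 ± 0.09 SE, adjusted p = 0.909, 95% interval −0.17 to 0.20). Its groups overlapped, and its sign turned negative in 7 of 20 other settings, library totals alone among them (−0.02).

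Genes of the BCDX2 and CX3 complexes, which act in strand exchange, went different ways. XRCC2, which with RAD51B, RAD51C and RAD51D makes the BCDX2 complex, had 53.8, 51.5 and 45.6 CPM in the ENZ libraries, against 75.9, 69.1 and 75.3 CPM in the Control libraries (log2 fold change −0.55 ± 0.06 SE, adjusted p = 3.40e-07), the smallest adjusted p of these 5 genes. RAD51C had 58.2, 59.3 and 59.8 CPM in the ENZ libraries, against 66.8, 63.9 and 67.4 CPM in the Control libraries (log2 fold change −0.16 ± 0.05 SE, adjusted p = 0.00911), and RAD51B, at 910.4 kb the longest gene here, had 10.1, 11.5 and 11.8 CPM in the ENZ libraries, against 9.47, 9.14 and 8.55 CPM in the Control libraries (log2 fold change 0.30 ± 0.09 SE, adjusted p = 0.0127). RAD51B was thus higher in every ENZ library while XRCC2 and RAD51C fell. RAD51D, the fourth member of that complex, had 34.05 ± 2.04 CPM in ENZ and 35.8 ± 1.71 CPM in Control (log2 fold change −0.07, interval −0.20 to 0.05, adjusted p = 0.352). The call of RAD51B ended without Control replicate 3 (adjusted p = 0.0624), without ENZ replicate 2 (0.0521) and without ENZ replicate 3 (0.0548), and that of RAD51C without Control replicate 1 (0.0502) and without Control replicate 3 (0.0555), each with the direction kept. Neither RAD51B nor XRCC3 was called by limma on log2(FPKM + 1) values. XRCC3, the partner of RAD51C in the CX3 complex, had 26.02 ± 1.92 CPM in ENZ and 29.3 ± 1.08 CPM in Control (log2 fold change −0.17 ± 0.07 SE, adjusted p = 0.0407); the groups overlapped and the call ended without any one of Control replicates 1, 2 and 3 and ENZ replicates 1 and 3 (adjusted p = 0.0533 to 0.156). Exons of KLC1, on the other strand, cover 76.7% of the exonic bases of XRCC3, and the libraries do not record the strand, so the XRCC3 count is uncertain.

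Of the factors of strand exchange and branch processing, RAD51AP1, which stimulates strand pairing, had 42.3, 35.3 and 34.97 CPM in the ENZ libraries, against 55.9, 51.6 and 52.5 CPM in the Control libraries (log2 fold change −0.51 ± 0.07 SE, adjusted p = 6.53e-06). BLM, the Bloom syndrome helicase that dissolves joint molecules, had 35.7, 30.9 and 31.8 CPM in the ENZ libraries, against 42.1, 41.97 and 44.3 CPM in the Control libraries (log2 fold change −0.38 ± 0.06 SE, adjusted p = 2.77e-05). RAD54B, a DNA translocase, had 8.31, 6.90 and 7.53 CPM in the ENZ libraries, against 11.8, 10.1 and 10.1 CPM in the Control libraries (log2 fold change −0.49 ± 0.10 SE, adjusted p = 4.84e-04). All 3 fell with no overlap, although 66.0% of the exonic bases of RAD54B are shared with FSBP on the same strand, whose log2 fold change was −0.49, so the counts of these 2 genes cannot be separated here. The related translocase RAD54L had 17.7 ± 0.674 CPM in ENZ and 19.9 ± 1.16 CPM in Control (log2 fold change −0.17 ± 0.07 SE, adjusted p = 0.0677, interval −0.32 to −0.02); every ENZ library was below every Control library, and it was called without Control replicate 1 (adjusted p = 0.0467). LRRC41 on the other strand covers 19.9% of RAD54L exons and rose by 0.18 (adjusted p = 0.00353).

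Of the 8 genes of the Fanconi anaemia core complex and its anchor, 3 fell, 1 rose and 4 were not called. With GC and length offsets, described below, 4 fell and 1 rose. The transcripts of FANCB, FANCL and FANCM, which fell in both fits, have 36.8% to 39.3% GC, and those of the others 43.7% to 58.1%. FANCB, an X-linked scaffold of the catalytic module, had 8.11, 8.26 and 6.87 CPM in the ENZ libraries, against 13.2, 12.1 and 12.9 CPM in the Control libraries (log2 fold change −0.72 ± 0.09 SE, adjusted p = 2.31e-06), and fell by 39.2%, the largest change of any member. FANCL, the ubiquitin ligase subunit that binds FANCB, had 41.6, 38.7 and 36.3 CPM in the ENZ libraries, against 54.03, 50.7 and 54.6 CPM in the Control libraries (log2 fold change −0.45 ± 0.06 SE, adjusted p = 1.79e-06). FANCM, the translocase that anchors the complex to DNA, had 19.1, 15.9 and 14.3 CPM in the ENZ libraries, against 22.4, 20.9 and 22.3 CPM in the Control libraries (log2 fold change −0.41 ± 0.09 SE, adjusted p = 7.72e-04). These genes, like those of resection, showed no overlap between groups. FANCC had 65.6, 66.5 and 66.7 CPM in the ENZ libraries, against 57.7, 59.8 and 57.5 CPM in the Control libraries (log2 fold change 0.18 ± 0.05 SE, adjusted p = 0.00302), and so rose, by 13.6%, with all ENZ libraries above all Control libraries, though limma on log2(FPKM + 1) values did not call it. The other subunits were not called without the offsets: FANCA, the most often mutated in the disease, had 53.99 ± 1.24 CPM in ENZ and 57.9 ± 2.10 CPM in Control (log2 fold change −0.10, interval −0.20 to 0.00, adjusted p = 0.111). With the offsets FANCA was called lower (−0.23, adjusted p = 6.52e-05). FANCE, which contacts FANCD2, had 19.1 ± 1.31 CPM in ENZ and 19.1 ± 0.0920 CPM in Control (log2 fold change −0.00, interval −0.15 to 0.14). FANCF had 46.6 ± 1.52 CPM in ENZ and 47.9 ± 2.05 CPM in Control (log2 fold change −0.04, interval −0.15 to 0.07) and FANCG had 80.5 ± 2.36 CPM in ENZ and 78.2 ± 2.10 CPM in Control (log2 fold change 0.04, interval −0.05 to 0.14). Groups overlapped in FANCE, FANCF and FANCG, while every ENZ library of FANCA lay below every Control library. Exons of ZNF276 on the other strand cover 19.6% of those of FANCA.

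FANCD2 and FANCI, the pair that the core complex ubiquitinates, fell slightly. FANCD2 had 107, 103 and 103 CPM in the ENZ libraries, against 116, 119 and 121 CPM in the Control libraries (log2 fold change −0.19 ± 0.04 SE, adjusted p = 7.69e-04) and FANCI had 247, 237 and 239.7 CPM in the ENZ libraries, against 272, 257 and 267 CPM in the Control libraries (log2 fold change −0.13 ± 0.04 SE, adjusted p = 0.0053). FANCD2 fell by 12.4% and FANCI fell by 8.93%, with no overlap of the groups. The FANCI call ended without Control replicate 1 (adjusted p = 0.0535) and without ENZ replicate 2 (0.0527). FANCD2 has partial pseudogene copies, which could take some of its reads.

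Of the checkpoint genes 4 of 5 fell. ATR, the kinase that answers single-stranded DNA, had 43.7, 40.03 and 37.9 CPM in the ENZ libraries, against 48.4, 45.5 and 51.4 CPM in the Control libraries (log2 fold change −0.26 ± 0.06 SE, adjusted p = 0.00176). ATM, the kinase that answers double-strand breaks, had 67.2, 59.3 and 56.4 CPM in the ENZ libraries, against 76.2, 68.2 and 72.3 CPM in the Control libraries (log2 fold change −0.24 ± 0.06 SE, adjusted p = 0.00353). TOPBP1, the activator of ATR, had 109, 104 and 99.5 CPM in the ENZ libraries, against 120.1, 119 and 121 CPM in the Control libraries (log2 fold change −0.20 ± 0.04 SE, adjusted p = 6.03e-04). The effector kinase CHEK2 had 39.6 ± 1.36 CPM in ENZ and 44.2 ± 1.56 CPM in Control (log2 fold change −0.16 ± 0.05 SE, adjusted p = 0.0216), a call that ended without Control replicate 1 (adjusted p = 0.0556), Control replicate 3 (0.126) or ENZ replicate 2 (0.0741). CHEK2 also has partial pseudogene copies. ATM and ATR were not called by limma on log2(FPKM + 1) values. CHEK1, the effector of ATR, had 70.1 ± 2.22 CPM in ENZ and 74.8 ± 1.17 CPM in Control (log2 fold change −0.09, interval −0.19 to 0.00, adjusted p = 0.11) and was called without ENZ replicate 1 (adjusted p = 0.0339). The ENZ libraries of all 5 checkpoint genes were below all Control libraries, as were those of 24% of all genes tested. With GC and length offsets, described below, 3 of the 5 were called lower, and CHEK1 was −0.01 (adjusted p = 0.777).

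The fold changes of the members followed the base composition of their transcripts. GC content was taken from the MANE Select transcript, or the longest where there is none, and its median was 41.6% over the members and 48.3% over all genes tested. All 12 members under 40% GC fell, 9 of 13 fell and 1 rose from 40% to 45%, and 2 of 8 fell and 1 rose at 45% and over. In the same bins 40.9%, 25.6% and 11.5% of all genes tested fell. The median log2 fold change was −0.48, −0.19 and −0.09 over the members of these bins and −0.19, −0.07 and 0.06 over all their genes. Spearman's rho between GC content and log2 fold change was 0.84 across the 33 members and 0.35 across 18538 genes, as a description, since genes are not independent and share the same libraries. The trend also differed between libraries: the median log2 ratio to the Control mean of the 3014 genes under 40% GC was −0.09, −0.21 and −0.28 in ENZ replicates 1, 2 and 3, the same order as the members. What part base composition or its measurement has in the falls was not tested.

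**Figure D3:**
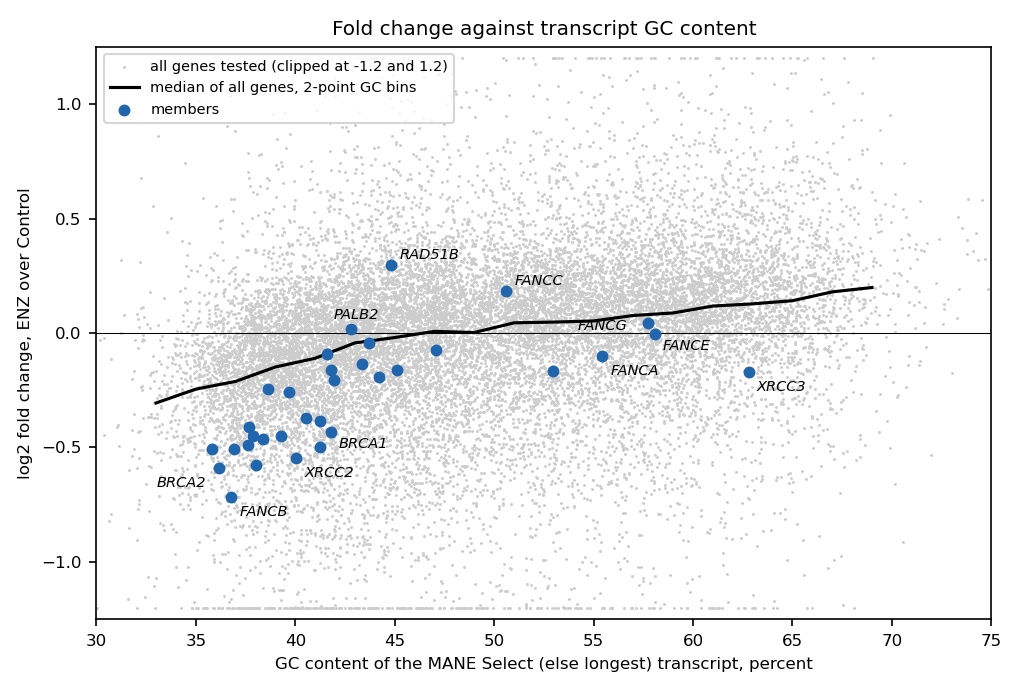
Log2 fold change (ENZ over Control) against the GC content of the transcript for all genes tested (grey, clipped at the axis limits), their median in bins of GC content (black line) and the 33 members (blue). The members under 40% GC, such as FANCB and BRCA2, lie below the black line, and RAD51B, FANCC and PALB2 lie above it.

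When each library was given offsets for GC content and transcript length, 23 members fell and 2 rose, against 21.5% and 20.5% of all genes. The GC trend over all genes was then −0.02 in rho, which follows from how the offsets are made, since they are fitted to remove it. The members that fell in both fits numbered 21, and 22 of the 23 first called had a smaller change with the offsets. The median over all members was nonetheless −0.26 with the offsets and −0.24 without them, against −0.01 over all genes in both fits. All 12 members under 40% GC still fell, as did 23.6% of all genes in that bin. From 40% to 45% GC 8 of 13 members fell, and 3 of 8 at 45% and over, against 20.2% and 21.4% of all genes. FANCB changed by −0.53, BRIP1 by −0.43, BRCA2 by −0.40 and BRCA1 by −0.36 with the offsets. RAD51AP1, with the lowest GC content (35.8%), moved most among the falls, to −0.28 (adjusted p = 1.09e-05). RAD51C (−0.07, adjusted p = 0.184) and CHEK2 (−0.11, adjusted p = 0.0515) lost their calls, and the GC-rich RAD54L (−0.26, adjusted p = 0.00184) and FANCA (−0.23, adjusted p = 6.52e-05) gained one. XRCC3, the most GC-rich member at 62.8%, had −0.35, and the rise of RAD51B was 0.36 and that of FANCC 0.11. ATM (−0.10, adjusted p = 0.0384) and ATR (−0.14, adjusted p = 0.00967) kept the call at a log2 fold change more than 1.5 times smaller, as did NBN (−0.34), RAD54B (−0.32), FANCL (−0.28) and FANCM (−0.26). With GC offsets alone the ATM call ended (−0.09, adjusted p = 0.0905), and with offsets from the longest transcript that of FANCC (0.08, adjusted p = 0.0863). Within the members rho was 0.55 after the offsets.

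**Figure D4:**
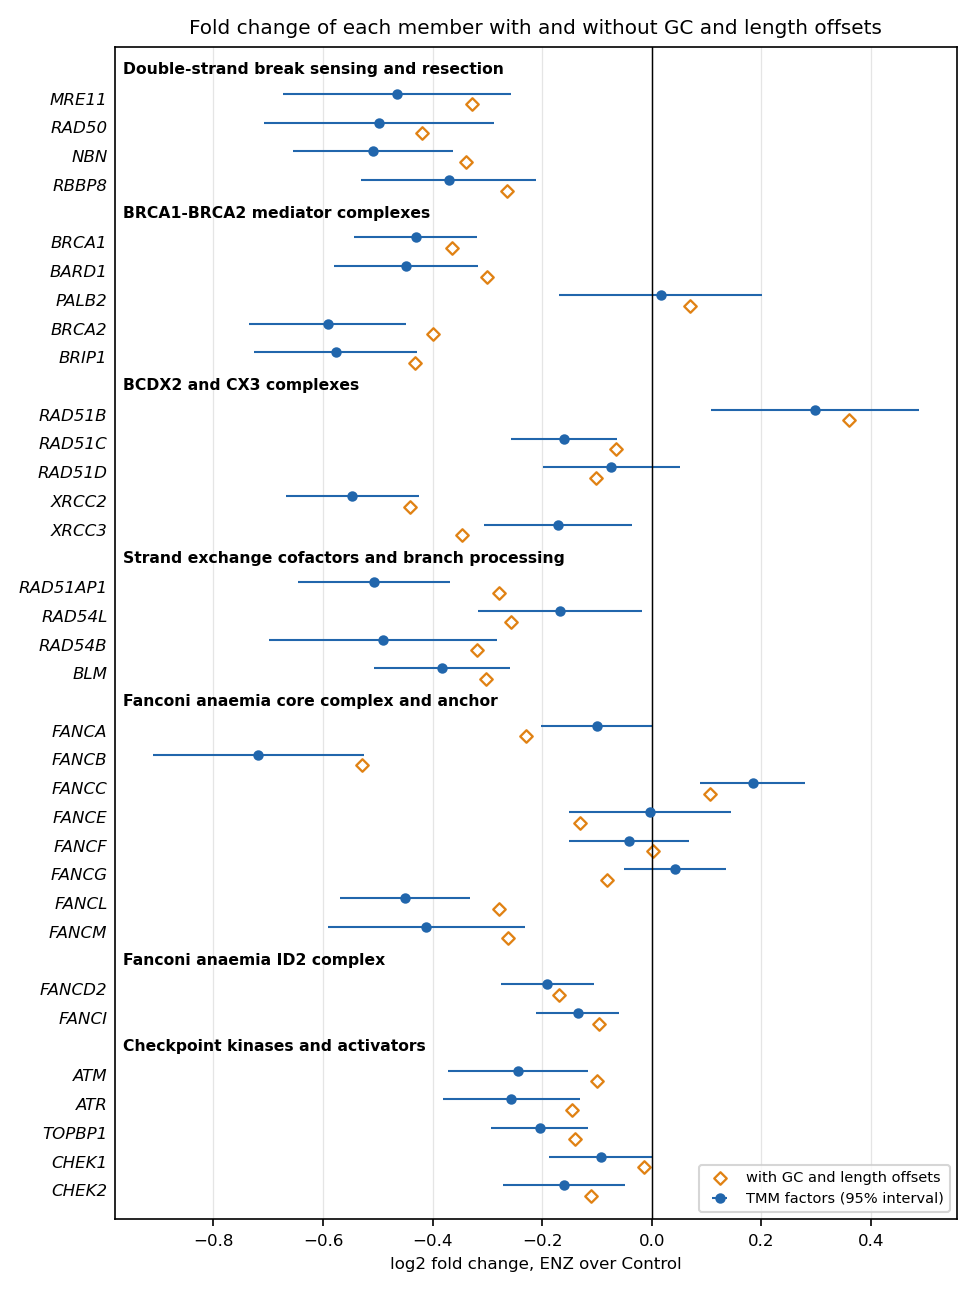
Log2 fold change (ENZ over Control) of each member by role, with TMM factors alone (blue, bars are 95% intervals) and with GC and length offsets (orange diamonds). Most falls of GC-poor members are smaller with the offsets, those of XRCC3, RAD54L and FANCA are larger, and RAD51B and FANCC stay above 0.

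Other genes of the same pathways were followed from lists of known pathway genes. In the list of other homologous recombination genes, 7 of 33 tested fell and 5 rose, with a median of −0.04 on the log2 scale. These shares, 21.2% and 15.2%, lie near the 19.3% and 20.5% of all genes tested. MCM8, a helicase of recombination, had a log2 fold change of −0.51 ± 0.06 SE, and the nuclease EXO1 had −0.33 ± 0.05 and FIGNL1 −0.26 ± 0.05. Of 18 other crosslink repair genes 4 fell and 4 rose, 22.2% each way and again near the share of all genes. Called among them were UBE2T, the ubiquitin-conjugating enzyme that works with FANCL (−0.23 ± 0.04), the nuclease DCLRE1A (−0.25 ± 0.06) and the core complex subunit FAAP20, which rose (0.43 ± 0.05). With GC and length offsets these were −0.09, −0.13 and 0.24, and FIGNL1 was −0.13, all still called but over 1.5 times smaller. Other checkpoint and chromatin response genes numbered 22, of which 8 fell and 1 rose (median −0.08), and with the offsets 13 fell and 1 rose, 59.1% against 36.4% without them. The ATR activator ETAA1 (−0.73 ± 0.08), the CHEK1 adaptor CLSPN (−0.41 ± 0.05) and the scaffold MDC1 (−0.30 ± 0.04) were among the falls. Of 18 end joining genes 6 fell, 0 rose and 12 were not called, which is 33.3% lower and 0% higher against 19.3% and 20.5% of all genes tested. The falls included POLQ, the polymerase that cells without recombination depend on (−0.52 ± 0.07), SHLD2 (−0.36 ± 0.07) and DCLRE1C (−0.32 ± 0.07). With the offsets SHLD2 was −0.20. The offsets gave 9 falls and 6 rises among the other homologous recombination genes, 5 and 3 among the crosslink repair genes and 6 and 0 in end joining.

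Genes of the dividing cell were followed as well. In the list of mitotic and G2/M genes 34 of 40 fell and 0 rose (median log2 fold change −0.33). In that of G1/S and replication genes 21 of 42 fell and 3 rose (median −0.11). SMC4 (−0.57 ± 0.05), MKI67 (−0.35 ± 0.03), RRM2 (−0.34 ± 0.03) and POLA1 (−0.34 ± 0.05) were among them. With the offsets 34 of the G2/M genes fell and 1 rose, and 28 of the replication genes fell and 4 rose. By library the G2/M list had medians of −0.31, −0.33 and −0.31 in ENZ replicates 1, 2 and 3. Single genes of the list went up or down across these replicates. Of 24 p53 targets 8 rose, 2 fell and 14 were not called. These shares were 33.3% higher and 8.33% lower, against 20.5% and 19.3% of all genes tested. The smallest adjusted p was that of the cell cycle inhibitor CDKN1A, with 405 ± 15.9 CPM in ENZ and 238 ± 5.50 CPM in Control (0.77 ± 0.04). MDM2 was among the falls (−0.19 ± 0.06, adjusted p = 0.0185) and was not called with the offsets (−0.07, adjusted p = 0.0857). With the offsets 8 p53 targets rose and 4 fell. The part of the cell cycle in the falls of the repair genes was not tested, and all these lists share the same 6 libraries.

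**Figure D5:**
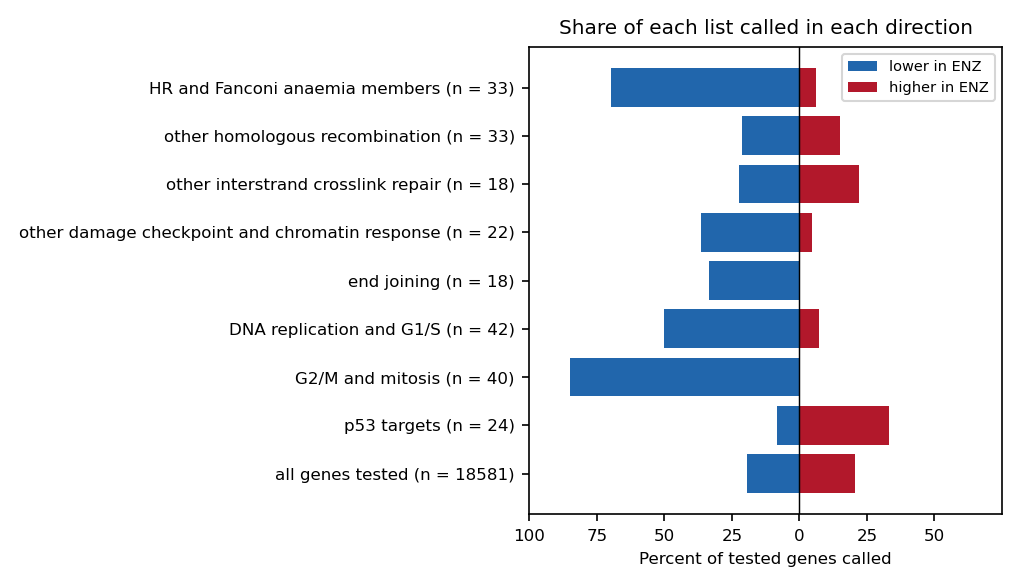
Percent of the tested genes of each list that were called lower in ENZ (blue, to the left) and higher in ENZ (red, to the right), with the number tested. The members stand at 69.7% lower and 6.06% higher, between the G2/M and mitosis list and the DNA replication and G1/S list, and all genes tested at 19.3% and 20.5%.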

How the data were processed

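Per the labels' protocols, polyadenylated RNA was made into NEBNext Ultra libraries, which keep no record of the strand. HISAT2 2.0.5, HTSeq 0.6.1, DESeq2 1.20.0 and GRCh38 are named in the submitters' processing notes. The sources used here name no annotation release, strand setting or filter. Raw counts of each gene were deposited together with FPKM values (fragments per gene length and library total), which equal the count over 1 length per gene and the library total within 6.34e-06 percent where the count was at least 10.

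From the counts, groups were compared with edgeR 4.0.16 in R 4.3.3 (TMM factors, default expression filter, robust quasi-likelihood F test, Benjamini-Hochberg adjustment over all 18581 genes tested). CPM values are TMM-scaled, marker sums are not. SE is the absolute log2 fold change over the square root of F. The test was run on counts simulated independently from a negative binomial model with dispersions fitted to these data. That simulation had no GC trend between libraries, so it does not check the p-values under the trend seen here. Positions, transcripts and overlaps are from GENCODE release 44 (GRCh38), in which 37817 of 37923 gene identifiers were found. GC and length offsets used natural splines with 4 degrees of freedom each. The 9849 genes with no symbol took 0.834% to 0.917% of a library's counts.

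Replicates of a group were farther apart than sampling noise (chi-square per degree of freedom 1.99 to 6.77), and each was counted as a replicate. The members and lists were chosen with earlier results of these data known. All members are named. Of each other pathway list, genes among the 3 called with the smallest adjusted p are named, and MDM2 besides. Some items are not reported here. Alternatives were DESeq2 1.42.0, limma-voom (limma 3.58.1), other scalings and filters, limma on log2(FPKM + 1) and log2(FPKM + 0.1), the replicate number as a block, the offsets, and each library left out. Intervals cover the spread between libraries.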

Additional observations from a re-analysis of the deposited data

How the results depend on the processing

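Of 20 other settings, all left the median of the members below 0 (−0.31 to −0.18), and all 23 members that fell kept that direction; 13 of them kept the call in every setting. The count of members that fell was 15 to 26, lowest on unfiltered log2(FPKM + 1) values, where 2005 genes fell and 1723 rose. On log2(FPKM + 1) and log2(FPKM + 0.1) values 2526 and 2520 genes rose. RAD50 and FANCB, under a mean of 1 FPKM, were not in the filtered FPKM fits, in which ATM, ATR, FANCC, RAD51B and XRCC3 lost their calls; XRCC3 was also not called by DESeq2 or without the count filter. No member rose on any of the FPKM scales (0), 1 rose with offsets from the longest transcript, and the cause was not tested. With each library left out in turn 20 to 23 members fell, 1 to 2 rose and their median was −0.31 to −0.20, while 2782 to 3994 genes fell and 3041 to 4264 rose. Members near 0 changed sign: PALB2 on library totals (−0.0186), on log2(FPKM + 0.1) (−0.0221), on log2(FPKM + 1) with and without the filter (−0.0165) and with a library left out (−0.0794 to 0.0974), FANCE without the count filter (0.0001) and with a library left out (−0.0599 to 0.032), FANCF with GC and length offsets (0.0018), with GC offsets alone (0.018) and with the block and offsets (0.003), FANCG with GC and length offsets from either transcript (−0.0817 and −0.0738), with GC offsets alone (−0.0689) and with the block and offsets (−0.0817), and CHEK1 with GC offsets alone (0.0048).

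Whether the replicate numbers pair the libraries cannot be told from the counts. Deviations from the group means correlated at 0.21, 0.15 and −0.17 for numbers 1, 2 and 3. Between unlike numbers the correlations were −0.40 to 0.32. With the replicate number as a block 23 members fell and 2 rose, with 3832 and 3634 genes higher and lower, and with the block and the offsets 24 fell and 2 rose. Offsets from the longest transcript and GC offsets alone were chosen after seeing the data. The members had at least 159 counts in each library, and the precision rests on 3 libraries a group.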
